A study of Mus musculus with 6 samples.

Results

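Ketone bodies are made in liver mitochondria from the acetyl-CoA that fatty acid oxidation delivers, and they leave the hepatocyte as fuel for other organs. ACAT1 joins acetyl-CoA units into acetoacetyl-CoA and also cleaves acetoacetyl-CoA and the last intermediate of isoleucine breakdown. Acetoacetate is then made from acetoacetyl-CoA, BDH1 reduces acetoacetate to β-hydroxybutyrate, and carriers of the SLC16 (monocarboxylate transporter) family move such acids across the plasma membrane. SLC16A1 (MCT1) carries lactate, pyruvate and ketone bodies in many cells. SLC16A6 (MCT7) has been described as an exporter of β-hydroxybutyrate from the liver. The liver makes ketone bodies but hardly uses them, since it holds little of OXCT1, the enzyme that activates acetoacetate.

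From this route *Bdh1*, *Acat1*, *Slc16a1* and *Slc16a6* were chosen by name, 4 of the 21528 genes listed in any library. All 4 were listed in all 6 libraries. Liver RNA of 3 TRIM24 C52/55A knockin mice and 3 WT mice was sequenced, each mouse as its own library. All 6 mice were C57BL/6 by their labels (a C57Bl/6J background in the methods), aged 5 months, and had eaten a high-fat diet (HFD), with 60% fat, for 3 months. The knockin changes Cys52 and Cys55 of the endogenous TRIM24, an E3 ligase, to alanine, and it was made by CRISPR/Cas9, so it is present in the whole body and not in hepatocytes alone. The methods describe the controls as WT littermates of homozygous knockins. Food was freely available by default, and no fast, a known driver of ketogenesis, is described for these livers. The comparison asks how hepatic gene expression differed between the genotypes on the HFD.

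The authors deposited FPKM, which count fragments relative to transcript length and to all mapped fragments of the library. Each library listed between 17709 and 17984 genes. Judged by the ratios of their lowest values, the libraries had 0.963 to 1.03 times the depth of WT replicate 1. The hepatocyte markers *Apoa1*, *Ttr*, *Cps1*, *Hnf4a* and *Serpina1a* checked the tissue, and these 5 summed to between 14770 and 15138 FPKM in WT and between 14877 and 17458 FPKM in knockin livers. Of the 5, *Cps1* was called, and it was higher in the knockin livers, at 421 to 577 against 278 to 344 FPKM (log2 fold change 0.63, limma adjusted p = 0.0281). Of 5 sinusoidal endothelial markers, *Lyve1* was called lower, at 0.974 to 2.84 against 5.00 to 8.40 FPKM (log2 fold change -1.26, limma adjusted p = 0.0281). The other 4 did not follow it, with log2 fold changes from -0.18 to 0.08, and the 5 summed to between 99.3 and 109 FPKM in WT and between 94.4 and 99.4 FPKM in knockin livers. TRIM24 C52/55A replicate 2 stood apart in fat cell markers, with 4.55 FPKM of *Adipoq*, 3.32 of *Plin1* and 3.98 of *Lep*, against at most 0.127 FPKM in any other library. The 8 adipocyte markers summed to between 5.28 and 10.9 FPKM in WT and between 8.17 and 29.6 FPKM in knockin livers. Among them *Adrb3* was higher in all 3 knockin livers, at 7.81 to 12.4 against 1.99 to 2.17 FPKM (log2 fold change 1.86, limma adjusted p = 0.000716), and *Cfd* was lower in all 3, at 0.112 to 2.54 against 3.10 to 8.62 FPKM (log2 fold change -1.61, limma adjusted p = 0.0617). The part of these cell types in the results for the 4 genes was not tested. *Trim24* itself had 5.54, 4.85 and 5.96 FPKM in WT and 6.15, 4.31 and 8.46 FPKM in knockin livers (log2 fold change 0.14, limma adjusted p = 0.713). Because the knockin exchanges codons and removes no exon, this level does not check the labels.

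*Bdh1* was the member that changed between the genotypes, and it fell by 38.0% in mean FPKM. *Acat1* and *Slc16a1* were lower in all 3 knockin livers than in any WT liver, by 18.1% and 12.9% in mean FPKM, but did not pass the test. *Slc16a6* overlapped between the genotypes, with a mean 9.89% above that of WT. Tests used limma on log2(FPKM + 1) in the 12225 genes that averaged 0.5 FPKM or more over the 6 livers, and p-values were adjusted over all of them (Benjamini-Hochberg, threshold 0.05). All 4 members passed that filter and 1 of 4 was called, against 7.72% of all genes tested called in either direction and 6.09% called lower. Every knockin library lay below every WT library for 3 of the 4 members, against 22.5% of all genes tested. Most genes were slightly lower in the knockin liver on this scale, with 8005 of 12225 genes (65.5%) lower and a median log2 fold change of -0.075. Fold changes on this scale understate the change of genes with few FPKM. In whole liver, fewer cells of a type and less RNA per cell cannot be told apart.

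**Figure D1:**
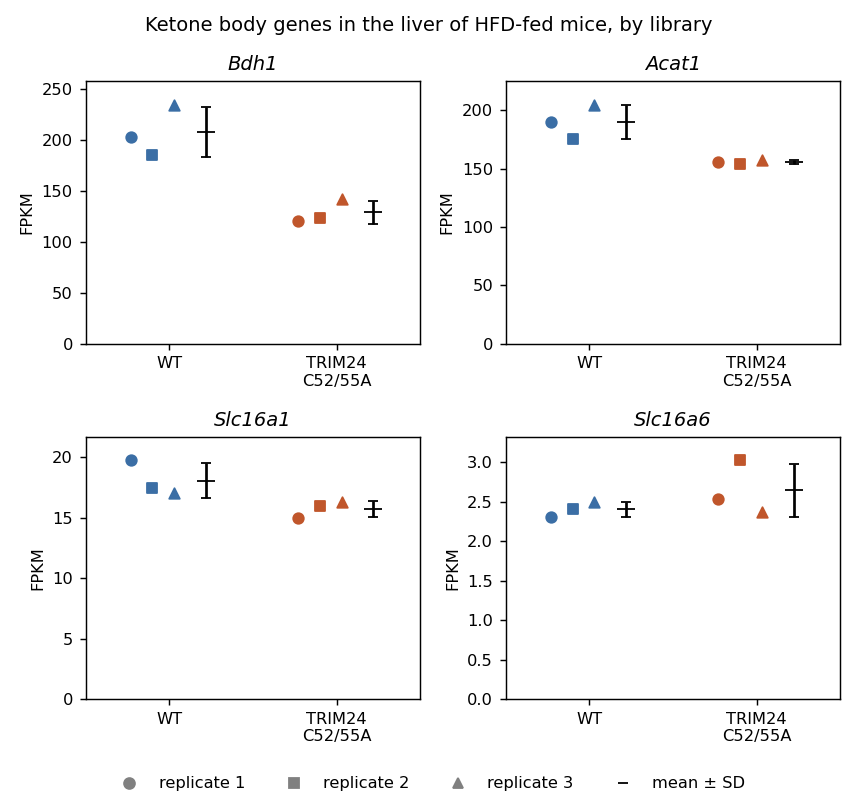
FPKM of the 4 genes (vertical axes, each from 0) in each of the 3 WT and 3 TRIM24 C52/55A livers. Marker shapes give the replicate number, which does not pair the mice, and bars give mean ± SD. The knockin points of *Bdh1* lie between 121 and 142 FPKM and those of WT between 185 and 234 FPKM, while the points of *Slc16a6* overlap.

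*Bdh1* (ENSMUSG00000046598) encodes the mitochondrial β-hydroxybutyrate dehydrogenase, which interconverts acetoacetate and β-hydroxybutyrate. It lies on the forward strand of chromosome 16 from 31422280 to 31458901 (GRCm38, GENCODE M21), and the files give the same interval. Its expression was 203, 185 and 234 FPKM in the WT livers and 121, 123 and 142 FPKM in the knockin livers, in the order of their replicate numbers 1 to 3 here and in what follows. The lowest WT liver stood above the highest knockin liver. The means were 207 ± 24.8 and 129 ± 11.7 FPKM (SD, n = 3 each). The log2 fold change was -0.68 (standard error 0.11, 95% confidence interval from -0.93 to -0.44, limma adjusted p = 0.0102). An exact permutation test on FPKM gave a two-sided p of 0.1, the smallest that 3 against 3 can give. The call rested in part on TRIM24 C52/55A replicate 1, without which the log2 fold change was -0.64 and the limma adjusted p 0.0505. Without replicate 2, the library with fat cell transcripts, it was -0.65 with a limma adjusted p of 0.0216. *Bdh1* shares 533 exonic bases with the antisense gene *Gm15743*. That gene had a mean of 0.163 FPKM, and whether the counting used strand is not given in the sources used here.

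The sequence upstream of 2 of the 4 genes, *Bdh1* and *Slc16a1*, was in the RefSeq promoter table (GRCm38.p6), and it is shown for both. *Bdh1* was called lower, and *Slc16a1*, also lower in every knockin liver, was not called. With 2 genes, motif matches cannot be related to the fold changes. Each line runs 5′ to 3′ over the 250 bases before the RefSeq start, which for *Bdh1* lies just inside the GENCODE interval, at chr16:31422047-31422296 for *Bdh1* and chr3:104638414-104638663 for *Slc16a1*, both on the forward strand. Capitals mark matches, on either strand, to 6 motifs: AGGTCANAGGTCA, the direct repeat bound by PPAR with RXR, its AGGTCA unit, the variant unit GGGTCA, the TATA box TATAAA, the E-box CACGTG and the GC box GGGCGG.
*Bdh1*: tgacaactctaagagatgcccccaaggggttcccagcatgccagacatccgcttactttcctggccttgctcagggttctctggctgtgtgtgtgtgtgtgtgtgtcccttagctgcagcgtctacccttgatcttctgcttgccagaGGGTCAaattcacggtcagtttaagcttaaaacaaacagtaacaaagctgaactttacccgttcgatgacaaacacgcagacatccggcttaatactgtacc
*Slc16a1*: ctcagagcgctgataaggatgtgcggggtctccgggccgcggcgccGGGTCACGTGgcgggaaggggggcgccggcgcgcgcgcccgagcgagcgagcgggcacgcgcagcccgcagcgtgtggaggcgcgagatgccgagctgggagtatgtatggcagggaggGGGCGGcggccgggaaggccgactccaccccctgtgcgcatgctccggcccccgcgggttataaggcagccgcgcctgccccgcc

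The *Bdh1* window held 49.6% G and C and 1 match, GGGTCA starting 102 bases before the start. The *Slc16a1* window held 76.4% G and C and 3 matches. Its GGGTCA, 204 bases before the start, overlapped CACGTG, which began 200 bases before the start, and GGGCGG began 85 bases before it. A further RefSeq start of *Bdh1* had a window at chr16:31428503-31428752 with 60.8% G and C and 0 matches. Among all 32851 windows of this length, GGGTCA was in 11.6%, CACGTG in 6.02%, GGGCGG in 32.7%, AGGTCA in 14.0%, TATAAA in 12.4% and the full direct repeat in 0.0335%. These matches are descriptions of letters, and binding was not measured in these data.

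*Acat1* (ENSMUSG00000032047) encodes the mitochondrial acetoacetyl-CoA thiolase. It lies on the reverse strand of chromosome 9 from 53580522 to 53610382, without an exon shared with another gene. Its expression was 190.0, 175 and 205 FPKM in WT livers and 156, 154 and 157 FPKM in TRIM24 C52/55A livers. The groups did not overlap, and the 3 knockin livers lay close together. The means were 190.0 ± 14.6 and 156 ± 1.91 FPKM (SD, n = 3 each). The log2 fold change was -0.28 (standard error 0.08, 95% confidence interval from -0.46 to -0.10, limma adjusted p = 0.0674), and the exact two-sided permutation p was 0.1. The gene was called after rescaling to TPM, where the log2 fold change was -0.35 (limma adjusted p = 0.0274). It was not called in the other 13 of 14 alternative settings.

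*Slc16a1* (ENSMUSG00000032902) encodes MCT1. It lies on the forward strand of chromosome 3 from 104638668 to 104658462. Its expression was 19.7, 17.5 and 17.0 FPKM in WT livers and 15.0, 15.9 and 16.3 FPKM in TRIM24 C52/55A livers. The highest value was that of WT replicate 1, and the lowest WT and highest knockin values were 17.0 and 16.3 FPKM. The means were 18.1 ± 1.46 and 15.7 ± 0.651 FPKM (SD, n = 3 each), with a log2 fold change of -0.19 (standard error 0.09, 95% confidence interval from -0.39 to 0.01, limma adjusted p = 0.246). The exact two-sided permutation p was 0.1. With median-of-ratios scaling the groups overlapped, at 16.1 to 19.1 in WT and 15.8 to 17.0 in knockin livers. WT replicate 1 also held the most globin RNA, with 556 FPKM of *Hbb-bs* against 202 and 289 FPKM in the other WT livers. The 5 erythroid markers were all listed and summed to between 673 and 1800 FPKM in WT and between 522 and 729 FPKM in knockin livers. Of these, *Alas2* did not follow the globins, at 52.8 FPKM in WT replicate 1, 57.0 and 53.9 FPKM in the other WT livers and 60.4 to 86.7 FPKM in knockin livers. Without that WT replicate the log2 fold change of *Slc16a1* was -0.12 (limma adjusted p = 0.547). The part of red cell RNA in this result was not tested.

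*Slc16a6* (ENSMUSG00000041920) encodes MCT7 and had the lowest level of the 4. It was at 2.31, 2.41 and 2.50 FPKM in WT livers and 2.54, 3.02 and 2.37 FPKM in TRIM24 C52/55A livers. Knockin replicate 3 lay inside the WT range and the other knockin livers above it. The means were 2.40 ± 0.0959 and 2.64 ± 0.339 FPKM (SD, n = 3 each). The log2 fold change was 0.09 (standard error 0.11, 95% confidence interval from -0.15 to 0.34, limma adjusted p = 0.654), and the exact two-sided permutation p was 0.4. The interval holds changes of either sign. Without TRIM24 C52/55A replicate 2 the log2 fold change was 0.02. With median-of-ratios scaling the groups did not overlap, at 2.23 to 2.37 in WT and 2.47 to 3.00 in knockin livers, and the gene was still not called.

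The value of *Slc16a6* also has a limit of counting. In GENCODE M21 the gene lies on the reverse strand of chromosome 11 from 109450855 to 109473598, 22.7 kb, but the files give it the interval from 109425946 to 109573330, 147.4 kb, which they also give to *Amz2* and *Arsg*. *Slc16a6* shares 1052 exonic bases with *Amz2* and 48 with *Arsg*, both on the opposite strand, and 49 with the miRNA gene *Gm25540* on its own strand. Without the strand, reads in those bases cannot be told apart. *Amz2* had 9.33, 8.17 and 8.68 FPKM in WT and 5.67, 6.09 and 6.46 FPKM in knockin livers, a fall of 0.46 on the log2 scale (limma adjusted p = 0.0241). *Arsg* overlapped between the genotypes, with 10.8 to 19.6 FPKM in WT and 10.3 to 15.1 FPKM in knockin livers. The overlapping gene *Amz2* and *Slc16a6* therefore had fold changes of opposite sign.

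In WT livers *Bdh1* stood above 97.0% of the genes tested, *Acat1* above 96.7%, *Slc16a1* above 75.5% and *Slc16a6* above 28.3%, as levels in FPKM. At the length of the longest annotated transcript, and with the steps between low values read as single fragments, the values correspond to about 6165 to 12077 fragments of *Bdh1*, 8358 to 11359 of *Acat1*, 1072 to 1413 of *Slc16a1* and 156 to 204 of *Slc16a6* in a library. Counting error at these numbers is at most 1.27% for *Bdh1*, 1.09% for *Acat1* and 3.05% for *Slc16a1*, but 7.01% to 8.02% for *Slc16a6*. The coefficient of variation between WT livers was 12.0% for *Bdh1*, 7.70% for *Acat1*, 8.08% for *Slc16a1* and 3.99% for *Slc16a6*. Among knockin livers it was 9.13%, 1.22%, 4.14% and 12.8%, in the same order.

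The order of *Bdh1* and *Acat1* in FPKM turned over between the genotypes. *Bdh1* had 1.07, 1.06 and 1.14 times the FPKM of *Acat1* in WT livers and 0.775, 0.801 and 0.903 times in TRIM24 C52/55A livers. In FPKM it was thus above *Acat1* in 3 of 3 WT livers and below it in 3 of 3 knockin livers. Whether the ratio lies above 1 depends on the transcript length used for each gene. In implied fragments, not divided by length, *Bdh1* was below *Acat1* in WT replicate 1 (10380 against 10468) and WT replicate 2 (9796 against 9981). It was above *Acat1* in WT replicate 3 (12077 against 11359). The difference in the mean log2 ratio was -0.40, with an exact two-sided permutation p of 0.1. Such a ratio within a library does not depend on a scaling factor given to each library, as in TPM or median-of-ratios scaling. Quantile normalization is not of this kind. Across WT livers the ranges of both genes overlapped, and across knockin livers they did not.

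All 6 pairs of the 4 genes were compared in this way, after the levels had been seen, and the groups did not overlap for 4 pairs. Every pair with *Bdh1*, the called member, was among these. The pairs share genes, so they are not separate results, and the share of such pairs among all genes was not counted. *Bdh1* over *Slc16a1* was 10.3, 10.6 and 13.8 in WT livers and 8.05, 7.72 and 8.75 in knockin livers. *Acat1* over *Slc16a1* was 9.63, 10.04 and 12.0 in WT livers and 10.4, 9.64 and 9.69 in knockin livers. The 2 lower members without a call thus kept overlapping ratios to each other, with a log2 difference of -0.09 and an exact two-sided permutation p of 0.7, while the ratios of *Bdh1* to both did not overlap between the genotypes. The 3 pairs with *Slc16a6* had log2 differences of -0.82 for *Bdh1*, -0.41 for *Acat1* and -0.33 for *Slc16a1*, and those of *Slc16a1* overlapped. Their exact two-sided permutation p-values were 0.1, 0.1 and 0.2. Adjusted over the 6 pairs, the exact permutation p-values were 0.15 for the 4 pairs without overlap, 0.24 for *Slc16a1* over *Slc16a6* and 0.7 for *Acat1* over *Slc16a1*.

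**Figure D2:**
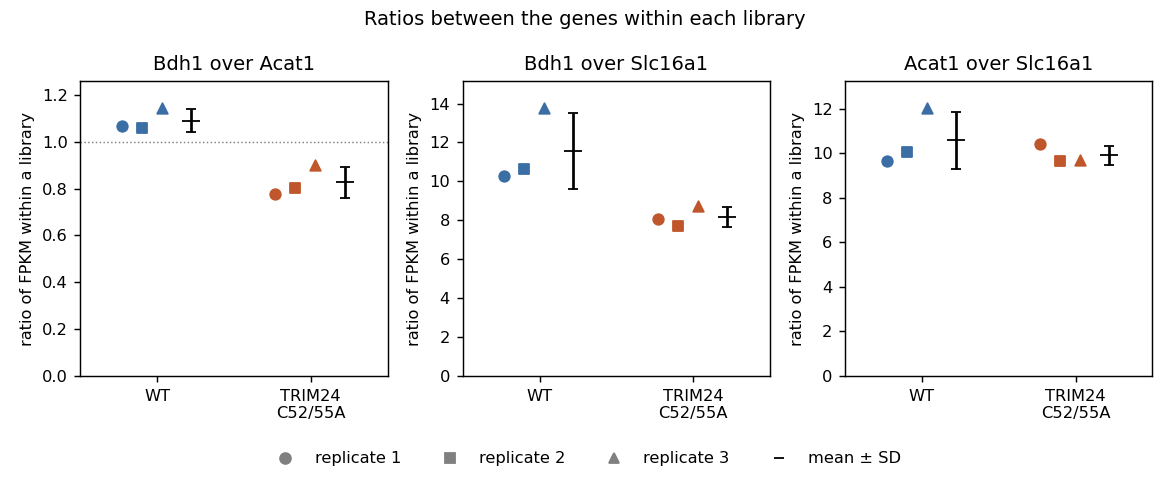
Ratios of FPKM between 2 genes within each library (vertical axes, from 0) for *Bdh1* over *Acat1*, *Bdh1* over *Slc16a1* and *Acat1* over *Slc16a1*, in 3 WT and 3 TRIM24 C52/55A livers. Marker shapes give the replicate number, bars give mean ± SD, and the dotted line marks equal FPKM. The ratio of *Bdh1* to *Acat1* lies above 1 in all 3 WT livers and below 1 in all 3 knockin livers.

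Of 12 further genes of ketone body and mevalonate metabolism, 11 were listed and 8 tested, with 7 lower and 1 higher and a median log2 fold change of -0.47. Over all genes tested 65.5% were lower and 7.72% called. Of these 8, 1 was called, *Acss3*, a mitochondrial acyl-CoA synthetase of short-chain acids. It fell from 3.58, 3.50 and 4.67 FPKM in WT to 0.891, 0.645 and 1.71 FPKM in knockin livers (log2 fold change -1.26, limma adjusted p = 0.00911). *Oxct1*, which activates acetoacetate for use, was low in all 6 livers, at 1.27 to 1.76 FPKM in WT and 1.09 to 1.57 FPKM in knockin livers (log2 fold change -0.13, limma adjusted p = 0.602).

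Relatives of *Slc16a1* and *Slc16a6* passed the test where those 2 genes did not. Of 16 SLC16 carriers and chaperones, *Slc16a1* and *Slc16a6* included, 14 were listed and 12 tested. Of the 12, 3 were called, all lower, against 6.09% of all genes tested called lower. *Slc16a7* (MCT2), a pyruvate and lactate carrier of high affinity, fell from 28.3, 27.5 and 31.2 FPKM in WT to 10.01, 8.89 and 13.7 FPKM in knockin livers. Its log2 fold change was -1.36 (standard error 0.14, limma adjusted p = 0.00217), and it was called in 14 of 14 alternative settings. *Slc16a5* had 12.4, 13.0 and 15.5 FPKM in WT and 1.99, 1.13 and 5.29 FPKM in knockin livers (log2 fold change -2.09, limma adjusted p = 0.0118). *Slc16a11*, a carrier linked to lipid metabolism, had 14.4, 14.8 and 15.0 FPKM in WT and 3.98, 8.54 and 3.81 FPKM in knockin livers (log2 fold change -1.36, limma adjusted p = 0.0146). The groups of these 3 carriers did not overlap, and the calls of *Slc16a5* and *Slc16a11* held in 11 and 10 of 14 alternative settings.

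In WT livers *Slc16a7* stood above *Slc16a1* in FPKM, and in knockin livers below it, without overlap in either genotype. *Slc16a3* (MCT4), a lactate exporter of glycolytic cells, was at 0.550 to 0.689 FPKM in WT and 0.301 to 0.577 FPKM in knockin livers (log2 fold change -0.18, limma adjusted p = 0.404). *Bsg*, the chaperone that brings MCT1 to the membrane, had 189.9, 189.9 and 216 FPKM in WT and 162, 170.4 and 167 FPKM in knockin livers, a log2 fold change of -0.25 (limma adjusted p = 0.0946). Of the 12 genes 11 were lower and 1 higher, against 65.5% of all genes lower, with a median log2 fold change of -0.22. The 1 higher gene was the member *Slc16a6*, and the member *Slc16a1* is among the lower ones. The lower ones numbered 9 with median-of-ratios scaling and 8 with quantile normalization. Without TRIM24 C52/55A replicate 1, or without WT replicate 3, the 3 calls became 1.

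**Figure D3:**
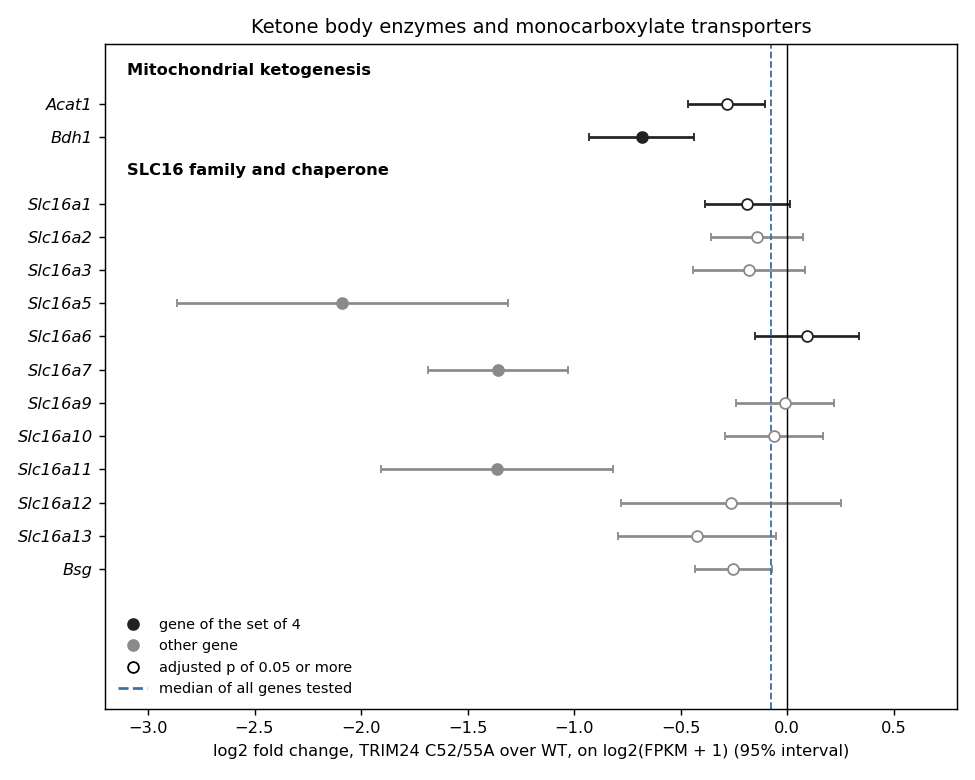
Log2 fold change of TRIM24 C52/55A over WT on log2(FPKM + 1) (horizontal axis) with its 95% confidence interval for *Acat1*, *Bdh1* and the 12 tested genes of the SLC16 family and its chaperone. Black marks the 4 chosen genes, grey the others, filled points an adjusted p under 0.05, and the dashed line the median of all genes tested. *Bdh1* sits at -0.68, and *Slc16a5*, *Slc16a7* and *Slc16a11* lie farther from 0 than *Slc16a1* and *Slc16a6*.

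Genes whose products supply acetyl-CoA were described by 2 further lists, at the RNA level only. Of 18 genes of mitochondrial fatty acid oxidation, all were tested and 8 were called, against 7.72% of all genes tested, with a median log2 fold change of -0.29. All 18 were lower in FPKM, against 65.5% of all genes tested, 17 with median-of-ratios scaling and 16 with quantile normalization. The 8 calls became 2 without TRIM24 C52/55A replicate 1, 3 without WT replicate 1 and 3 without WT replicate 3. *Cpt1a*, the gate of fatty acid entry into mitochondria, had 125, 106 and 130.5 FPKM in WT and 82.9, 84.0 and 86.7 FPKM in knockin livers, a fall of 0.50 on the log2 scale (limma adjusted p = 0.0170). The carnitine carrier *Slc25a20* fell by 0.54 (limma adjusted p = 0.0142). Among the enzymes of the β-oxidation spiral, *Hadh* fell by 0.70, *Acadl* by 0.54, *Acadm* by 0.49 and *Hadha* by 0.29 on the log2 scale, with limma adjusted p of 0.0120, 0.0102, 0.0495 and 0.0438. *Eci1* and *Decr1*, which handle unsaturated fatty acids, fell by 0.59 and 0.38 (limma adjusted p = 0.00992 and 0.0350). The call of *Hadha* held in 3 of 14 alternative settings, that of *Acadm* in 4, *Decr1* in 5 and *Cpt1a* in 9, those of *Hadh* and *Slc25a20* in 12, and those of *Acadl* and *Eci1* in 14 of 14.

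Leucine and isoleucine breakdown also ends in acetyl-CoA and acetoacetate. Of its 15 genes 14 were tested, with 11 lower and 3 higher and a median log2 fold change of -0.24, and with median-of-ratios or quantile scaling 8 were lower and 6 higher. Over all genes tested 65.5% were lower. The groups did not overlap, with the knockin livers lower, for 8 of the 14, against 22.5% of all genes tested. For 1 of the 14, *Acadsb*, the knockin livers were higher without overlap. It had 35.2 to 42.7 FPKM in WT and 43.1 to 57.3 FPKM in knockin livers (log2 fold change 0.32, limma adjusted p = 0.152). *Bckdhb*, a subunit of the branched-chain ketoacid dehydrogenase, fell by 0.54 and *Hsd17b10*, the isoleucine pathway enzyme just before the ACAT1 step, by 0.67 on the log2 scale (limma adjusted p = 0.0256 and 0.0201). These 2 of 14 genes passed the test, against 7.72% of all genes tested, *Bckdhb* in 10 and *Hsd17b10* in 7 of 14 alternative settings. The count became 0 when TRIM24 C52/55A replicate 1, WT replicate 1 or WT replicate 3 was left out, and 1 when WT replicate 2 was.

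Regulators of ketogenesis were mostly without a call. Of 18 tested, 15 were lower and 3 higher, 2 were called, and the median log2 fold change was -0.25. Over all genes tested 65.5% were lower and 7.72% called. With median-of-ratios scaling 13 were lower and with quantile normalization 12. The 2 calls became 0 without TRIM24 C52/55A replicate 1 or replicate 3, and 1 without WT replicate 1 or replicate 3. *Ppara*, the receptor that induces ketogenic genes in fasting, had 28.0, 34.8 and 27.1 FPKM in WT and 33.4, 19.8 and 21.2 FPKM in knockin livers, and the groups overlapped (log2 fold change -0.29, limma adjusted p = 0.407). *Fgf21*, a hepatic hormone and PPARα target, fell from 19.2, 7.44 and 10.1 FPKM to 4.07, 4.14 and 3.02 FPKM (log2 fold change -1.39, limma adjusted p = 0.0248), with WT replicate 1 the highest. *Sirt5*, a mitochondrial desuccinylase, fell from 6.27, 5.15 and 6.87 FPKM to 3.60, 4.43 and 3.46 FPKM (log2 fold change -0.55, limma adjusted p = 0.0367). The call of *Fgf21* held in 10 of 14 alternative settings and that of *Sirt5* in 6.

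For each of the 4 genes the 3 genes most like it were taken by Pearson's r of log2(FPKM + 1) over the 6 livers. For *Bdh1* they were *Mrpl16*, *Aldh8a1* and *Gfm1*, with r between 0.998 and 0.999, and 431 genes had r over 0.95. *Mrpl16* and *Gfm1* encode parts of the mitochondrial translation machinery. For *Acat1* they were *Bnip2*, *Ppcs* and *Man1a*, with r from 0.994 to 0.997 and 271 genes over 0.95. *Slc16a1* was most like *Vav1*, *Tecr* and *Gm4609* (r from 0.992 to 0.994, 61 genes over 0.95), and *Slc16a6* was most like *Proc*, *Gm9992* and *Epb41l2* (r from 0.990 to 0.997, 43 genes over 0.95). The 6 livers fall into 2 genotypes, so a gene that differs between them tends to score high with *Bdh1*, and the ranking is a description without a test.

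The log2 fold changes of the 4 genes kept their sign in all 14 alternative settings. That of *Bdh1* ranged from -0.76 to -0.53 and was called in 13 of 14. Those of *Acat1* ranged from -0.35 to -0.14, of *Slc16a1* from -0.25 to -0.06 and of *Slc16a6* from 0.02 to 0.17. The values nearest 0 for *Acat1* and *Slc16a1* came with quantile normalization, which moved the median of all genes from -0.075 to 0.01.

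**Figure D4:**
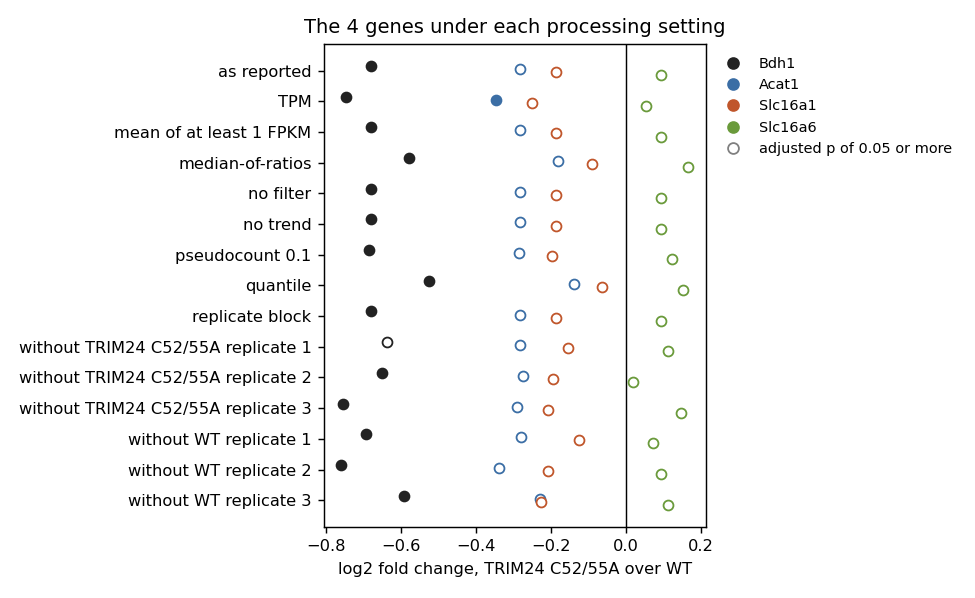
Log2 fold change of TRIM24 C52/55A over WT (horizontal axis) for *Bdh1*, *Acat1*, *Slc16a1* and *Slc16a6* as reported and under each of 14 alternative settings (rows), with filled points for an adjusted p under 0.05. *Bdh1* lies between -0.76 and -0.53 and is filled in every row but the one without TRIM24 C52/55A replicate 1.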

How the data were processed

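RNA-Seq libraries of 6 livers, 3 from WT and 3 from TRIM24 C52/55A mice, were grouped by the genotype in their labels. For each library the authors deposited FPKM per gene, normalized to transcript length and mapped fragments, and FPKM keep no total count. The submitters' processing notes name bcl2fastq, Salmon 0.14.0, DESeq2 1.30.0 and GRCm38, and which tool made the FPKM is not given in the sources used here. Genes a library does not list were taken as 0. Of 21528 identifiers, 21454 were found in GENCODE M21.

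On log2(FPKM + 1), limma 3.58.1 (R 4.3.3, mean-variance trend) compared the genotypes in 12225 genes averaging 0.5 FPKM or more, and p-values were adjusted by the Benjamini-Hochberg method. Single values also had an exact permutation test. Tables and figures were made with matplotlib 3.10.9, scipy 1.17.1, numpy 2.4.6 and pandas 2.3.3 in Python 3.11.15. The fit was tested on simulated data. Each library is 1 mouse. The members and gene lists were chosen with earlier results of these data known. Named genes were the 4 members, every pathway list gene with an adjusted p under 0.05, 7 list genes whatever their p (3 of them called), *Trim24* and the 3 genes most like each member. *Amz2* and *Arsg* were added for their overlap with *Slc16a6*. *Acadsb* and the marker genes given with values were chosen after these values were seen. Promoter windows and gene positions came from RefSeq and GENCODE on GRCm38. Some items are not reported here. The alternatives were a pseudocount of 0.1, no filter, a mean of at least 1 FPKM, TPM, median-of-ratios and quantile scaling, no trend, a replicate block and each replicate left out.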

Additional observations from a re-analysis of the deposited data

How the results depend on the processing

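With 3 mice for each genotype, the fit across genes is the test that can call a gene here, since an exact permutation test cannot go below 0.1. The 944 genes called became 1555 with TPM, 347 with no filter and 578 with the replicate block, and between 294 and 1280 with 1 replicate left out. They were 294 without TRIM24 C52/55A replicate 1, 311 without WT replicate 1, 475 without WT replicate 2 and 300 without WT replicate 3. Higher and lower calls numbered 200 and 744 as reported, 249 and 411 with median-of-ratios scaling, 255 and 378 with quantile normalization and 197 and 1358 with TPM. The cause of these moves was not tested, beyond the fewer samples or the wider set of genes that a setting itself brings.

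*Bdh1* ranged from -0.76 to -0.59 with 1 replicate left out, and lost its call without TRIM24 C52/55A replicate 1 (-0.64, limma adjusted p = 0.0505). Over all 14 alternatives its adjusted p from limma lay between 0.00614 and 0.0505. *Acat1* gained a call with TPM (-0.35, limma adjusted p = 0.0274, range over the alternatives 0.0274 to 0.328). Members called numbered 2 with TPM and from 0 to 1 with 1 replicate left out. The list of other ketone body and mevalonate genes had 2 calls with TPM and 2 with the replicate block. The SLC16 list had 1 call with no filter and from 1 to 4 with 1 replicate left out, with 1 without TRIM24 C52/55A replicate 1 and 1 without WT replicate 3. Leucine and isoleucine breakdown had 6 calls with TPM, 1 with median-of-ratios scaling, 1 with quantile normalization, 0 with no filter and from 0 to 3 with 1 replicate left out. Fatty acid oxidation had 12 calls with TPM, 9 when the filter was raised to 1 FPKM, 5 with median-of-ratios scaling, 4 with no filter, 5 with no trend, 4 with quantile normalization and from 2 to 6 with 1 replicate left out. The regulators had 1 call with median-of-ratios scaling, 1 with quantile normalization, 0 with no filter and from 0 to 3 with 1 replicate left out. For 20 other named genes, 209 of 279 alternative values kept direction and call, 69 lost the call, 1 gained one and 0 reversed.

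Same-numbered mice did not deviate together, with correlations of -0.123, -0.0988 and 0.00267 for numbers 1 to 3, so the numbers are not taken as pairs. With the replicate block, the limma adjusted p was 0.00996 for *Bdh1* and 0.119 for *Acat1*. Of those 20 genes, *Sirt5* (0.103) and *Hadha* (0.111) lost their calls under the block in limma.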
